A study of Mus musculus with 3 samples.

Results

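The skeletal muscle myosin heavy chains are described here in mandibular condyles, the upper end of the lower jaw that forms the jaw side of the temporomandibular joint. The 6 genes Myh1, Myh2, Myh3, Myh4, Myh7 and Myh8 were chosen by symbol among the 26970 genes of the deposited table, and all 6 were found. They were picked with values of these libraries already known, so their levels and shares are given as a description and no test was applied. The samples were condyles with cartilage and subchondral bone from mice 4 months old, of the genotypes +/+ (WT), +/- (Dspp+/-) and -/- (Dspp-/-) for the gene of dentin sialophosphoprotein, which is deleted in the germ line on a C57BL/6 background. Each genotype had 1 RNA sequencing library, so no difference between genotypes has a replicate check. Tissue of 3 animals was pooled for WT and for Dspp+/-, and the study's methods do not give the number for Dspp-/-.

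Myosin heavy chain is the motor protein of the thick filament, and in an adult mouse muscle fibre the isoform it holds sets how fast the fibre shortens. Myh7 encodes the slow chain of type I fibres, and Myh2, Myh1 and Myh4 encode the fast chains of type IIa, IIx and IIb fibres, in rising order of speed and falling order of oxidative capacity. Myh3 and Myh8 encode the embryonic and perinatal chains, which appear in developing and regenerating fibres. The jaw-closing muscles of the mouse are fast muscles, and the lateral pterygoid inserts on the condyle itself.

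Because the chains are close relatives, a stretch of coding sequence is printed first to show how they can differ. It was chosen as the stretch with the most positions where Myh2, Myh1 and Myh4 differ. The stretch is 60 bases long and lies within 1 exon in each gene (build GRCm38, 5′ to 3′ on the coding strand). Capitals mark a base other than the one carried most often by the 6 genes at that place, where at a tie the base first in the alphabet is left in lower case. In Myh4 it lies at chr11:67254458-67254517 in exon 28, in Myh2 at chr11:67191348-67191407 in exon 28 and in Myh1 at chr11:67217464-67217523 in exon 29. In Myh7 it lies on the minus strand at chr14:54978642-54978701 in exon 30.
Myh2: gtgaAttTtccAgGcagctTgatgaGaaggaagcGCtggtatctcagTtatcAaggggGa
Myh1: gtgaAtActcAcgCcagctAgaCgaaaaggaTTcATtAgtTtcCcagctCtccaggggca
Myh4: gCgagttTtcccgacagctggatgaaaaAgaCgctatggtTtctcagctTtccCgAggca
Myh8: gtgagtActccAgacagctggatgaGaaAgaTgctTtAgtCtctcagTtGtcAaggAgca
Myh3: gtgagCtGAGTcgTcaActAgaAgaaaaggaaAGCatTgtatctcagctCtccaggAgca
Myh7: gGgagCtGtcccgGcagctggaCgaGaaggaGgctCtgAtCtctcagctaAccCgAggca

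Myh2, Myh1 and Myh4 carried different bases at 24 of these 60 positions, the most of any such stretch without gaps, so it is not typical. Over the whole coding sequence, Myh2 and Myh1 were 91.0% identical, Myh1 and Myh4 90.1%, and Myh2 and Myh4 88.2%, whereas Myh7 was 76.7% to 77.6% identical to the other 5. Of all runs of 100 bases in a gene's transcripts, 13.99% of those of Myh1, 9.49% of Myh2 and 3.85% of Myh4 also occurred in another gene. Here any gene counted, on either strand, and not the 6 chains alone. Of the runs of Myh1, 7.21% occurred in Myh2, while 6.45% of those of Myh2 and 2.25% of those of Myh4 occurred in Myh1. A fragment lying within such a run could have been counted for either gene, and how the counting treated it is not given in the sources used here.

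Myh3, Myh2, Myh1, Myh4 and Myh8 lie in that order on the plus strand of chromosome 11, from 66969126 to 67199460 in the positions of the authors' table, whose build is not GRCm38. Myh7 lies on chromosome 14, from 55208141 to 55232083 on the minus strand. The promoters of the 4 neighbours from Myh2 to Myh8 are shown because the levels of these adjacent genes moved in different directions. Each is the 250 bases before the start site (RefSeq, GRCm38.p6), and all 6 genes were matched. Capitals mark a 14-base run that the 4 promoters share and, where it reads on the printed strand, TATAAA.
Myh2 (chr11:67170777-67171026, + strand): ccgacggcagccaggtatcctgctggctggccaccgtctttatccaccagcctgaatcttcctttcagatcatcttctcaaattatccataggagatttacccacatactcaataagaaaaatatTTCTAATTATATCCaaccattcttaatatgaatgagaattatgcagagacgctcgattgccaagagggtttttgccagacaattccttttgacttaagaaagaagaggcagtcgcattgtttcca
Myh1 (chr11:67199852-67200101, + strand): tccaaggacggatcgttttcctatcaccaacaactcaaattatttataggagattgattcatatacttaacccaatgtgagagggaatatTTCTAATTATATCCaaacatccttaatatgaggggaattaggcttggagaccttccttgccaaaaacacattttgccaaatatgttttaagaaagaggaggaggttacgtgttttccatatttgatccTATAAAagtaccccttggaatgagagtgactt
Myh4 (chr11:67237562-67237811, + strand): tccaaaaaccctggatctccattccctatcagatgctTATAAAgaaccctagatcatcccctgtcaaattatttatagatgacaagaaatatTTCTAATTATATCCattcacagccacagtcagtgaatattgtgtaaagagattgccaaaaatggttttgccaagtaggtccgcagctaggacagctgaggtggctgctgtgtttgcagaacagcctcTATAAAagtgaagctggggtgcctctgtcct
Myh8 (chr11:67276874-67277123, + strand): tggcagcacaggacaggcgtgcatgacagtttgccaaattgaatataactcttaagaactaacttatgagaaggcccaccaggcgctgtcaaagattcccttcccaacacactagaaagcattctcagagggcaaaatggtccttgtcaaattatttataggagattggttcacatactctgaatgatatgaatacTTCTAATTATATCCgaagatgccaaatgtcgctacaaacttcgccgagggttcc

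The run TTCTAATTATATCC occurred in 4 of 32851 mouse promoter windows of the same length, on either strand, and those 4 are the ones printed. Counted from the start site, it began at -125 in Myh2, -160 in Myh1, -158 in Myh4 and -54 in Myh8. In Myh2, Myh1 and Myh4 the shared run extended to the 20 bases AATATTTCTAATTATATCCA. The letters TATAAA, searched on both strands, occurred in 12.4% of all windows. It began at -208 and -32 in Myh1, at -213, -179 and -31 in Myh4, at -96 in Myh8 and at -29 in Myh3, and had 0 matches in Myh2 and Myh7. The E-box CANNTG, the core that MyoD-family factors bind, occurred in 66.2% of windows. It had 2 matches in Myh4, 1 each in Myh8 and Myh3, and 0 in Myh2 and Myh1. Myh7 had 1 match at its first start site and 2 at its second. The CArG box, searched by name, occurred in 1.47% of windows and among the 6 genes in Myh4 alone, at -104.

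The WT, Dspp+/- and Dspp-/- libraries held 20241572, 23613620 and 22253155 fragments, recovered from the deposited values. Levels are in FPKM, fragments scaled to exon length and library size, which allows genes to be compared per length. Mitochondrial genes took 25.02%, 36.9% and 37.3% of the summed FPKM in WT, Dspp+/- and Dspp-/-. The label condyle was checked against markers. Chondrocyte, osteoblast and osteoclast genes were present in all 3 libraries, with Col2a1, the main cartilage collagen, at 761, 94.2 and 308 FPKM. Skeletal muscle genes were also abundant, with Acta1, the skeletal actin, at 5609, 8162 and 7150 FPKM, although the label names the condyle only. All 6 chondrocyte genes with a mean of 1 FPKM or more were lower than WT in both mutants, with median log2 ratios of -2.50 in Dspp+/- and -1.03 in Dspp-/-, and so were all 6 osteoblast genes (-1.66 and -0.89) and all 5 osteoclast genes (-1.36 and -0.84). The part of this difference in cartilage and bone genes in the heavy chain levels was not tested, and in such bulk samples fewer cells of a type and less RNA per cell cannot be told apart.

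Myh1 and Myh2 were the leading heavy chains in every library. Myh1, the IIx chain, stood at 671 FPKM in WT and at 747 and 726 FPKM in Dspp+/- and Dspp-/-, on 86242, 112055 and 102660 fragments. Its place among all 26970 genes was 36th, 33rd and 32nd. The 3 libraries were thus near each other for this chain. Myh2, the IIa chain, was measured at 706 FPKM in Dspp+/-, against 342 in WT and 359 in Dspp-/-, on 118979, 49377 and 57051 fragments. It was high in the Dspp+/- library alone, where it drew level with Myh1. Myh4, the IIb chain, showed the opposite, with 18.2 FPKM in Dspp+/-, against 124 in WT and 111 in Dspp-/-, on 2579, 15079 and 14887 fragments. In rank, Myh4 was the 230th gene in WT, the 2180th in Dspp+/- and the 240th in Dspp-/-.

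**Figure D1:**
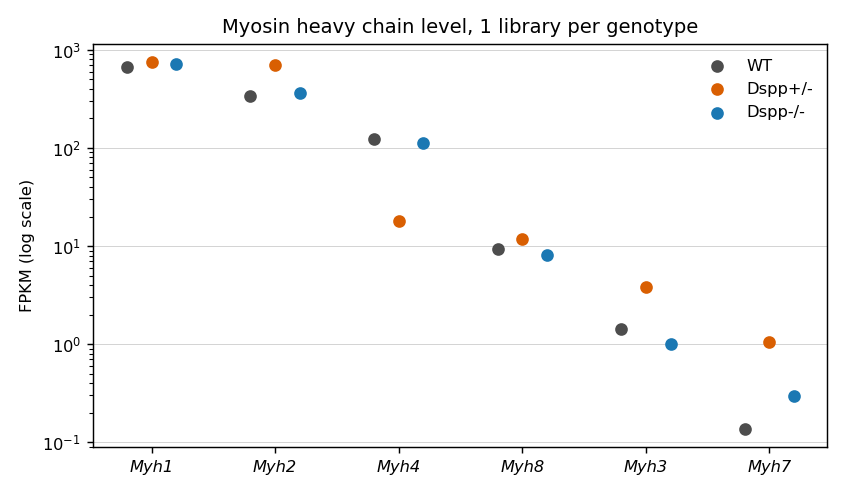
Level of each of the 6 myosin heavy chains in FPKM on a log axis, with 1 point per library for WT, Dspp+/- and Dspp-/-. Myh4 lies at 18.2 FPKM in Dspp+/- against 124 in WT and 111 in Dspp-/-, and Myh2 at 706 against 342 and 359.

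The developmental and slow chains were minor. Myh8, the perinatal chain, was at 9.39, 11.7 and 8.10 FPKM in WT, Dspp+/- and Dspp-/-. Myh3, the embryonic chain, was at 1.42, 3.82 and 1.01 FPKM, on 174, 547 and 136 fragments. Both were highest in Dspp+/- and lowest in Dspp-/-. Myh7, the slow chain, was at 0.138, 1.04 and 0.297 FPKM, on 24, 212 and 57 fragments, and was the only one of the 6 whose mean stayed under 1 FPKM. By FPKM, Myh1 and Myh2 led in every library, Myh4 came before Myh8, and Myh3 and Myh7 came last. In Dspp+/- the order of Myh4 and Myh8 depended on the length used, and by fragments Myh8 was above Myh4 (3262 against 2579).

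Shares within a library do not depend on how the libraries were scaled to each other. Intervals are exact 95% Clopper-Pearson limits on fragments. They cover counting error only, and not the spread between animals or libraries. They are too narrow where fragments are PCR copies, which are not independent molecules. Myh1 made up 58.5% of the summed FPKM of the 6 chains in WT (58.2 to 58.7), 50.2% in Dspp+/- (50.01 to 50.41) and 60.2% in Dspp-/- (59.99 to 60.44). Myh2 held 29.8% in WT (29.57 to 30.02), 47.5% in Dspp+/- (47.3 to 47.7) and 29.8% in Dspp-/- (29.58 to 29.995). Myh4 held 10.8% in WT (10.63 to 10.96), 1.22% in Dspp+/- (1.17 to 1.27) and 9.22% in Dspp-/- (9.08 to 9.36). The WT and Dspp-/- libraries thus had nearly the same make-up, and the Dspp+/- library had a larger IIa and a smaller IIb share.

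**Figure D2:**
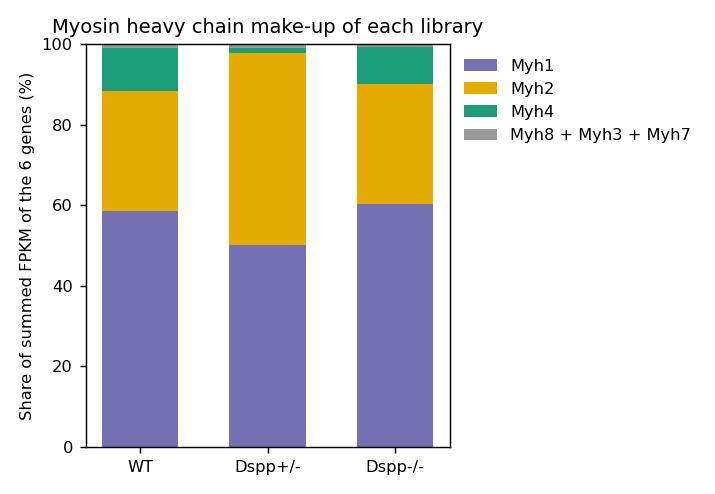
Share of each heavy chain in the summed FPKM of the 6 chains, in percent, with Myh8, Myh3 and Myh7 drawn as 1 segment and 1 stacked bar for each of the WT, Dspp+/- and Dspp-/- libraries. Myh4 takes 10.8%, 1.22% and 9.22%, and Myh2 29.8%, 47.5% and 29.8%.

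The perinatal chain Myh8 took 0.818%, 0.789% and 0.671% of the sum in WT, Dspp+/- and Dspp-/-, the embryonic chain Myh3 took 0.124%, 0.257% and 0.0837%, and the slow chain Myh7 took 0.0120%, 0.0700% and 0.0247%. The exon length of Myh8 includes transcripts with retained introns, and over the length of 1 coding transcript per gene its share was 1.42%, 1.34% and 1.16%. On that length the share of Myh4 in Dspp+/- was 1.08%, below that of Myh8. By FPKM, the 4 adult chains accounted for 99.1%, 99.0% and 99.2% of the sum. IIx and IIa together came to 88.3% in WT, 97.7% in Dspp+/- and 90.0% in Dspp-/-. Read as ratios of FPKM, Myh1 exceeded Myh2 1.96-fold in WT and 2.02-fold in Dspp-/-, but 1.06-fold in Dspp+/- (1.05 to 1.07). That last order turned with the length used, since by fragments Myh2 held 50.1% and Myh1 47.2% in Dspp+/-. Myh2 exceeded Myh4 2.76-fold in WT, 38.9-fold in Dspp+/- (37.4 to 40.5) and 3.23-fold in Dspp-/-.

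Against WT, the Dspp+/- library held 6.82-fold less Myh4 (6.54 to 7.11) and 2.07-fold more Myh2 (2.04 to 2.09). Myh1 was 1.11-fold higher (1.104 to 1.124) and Myh8 1.25-fold higher (1.18 to 1.32). The scarce Myh3 was 2.69-fold higher (2.27 to 3.21) and Myh7 7.57-fold higher (4.95 to 12.1), from a WT value resting on 24 fragments. On the log2(FPKM + 1) scale, which understates the change of low genes, Myh4 was at -2.70, Myh2 at 1.04 and Myh3 at 1.00, which fell just short of 2-fold before rounding. Of the 5 chains that averaged 1 FPKM or more, 1 was thus at least 2-fold higher and 1 at least 2-fold lower, beside 4.88% and 2.86% of the 13026 genes compared. The higher one, Myh2, was under 2-fold with median-ratio (0.99), upper-quartile (0.96) and muscle gene (0.50) scaling, and Myh3 was past 2-fold with a pseudocount of 0.1 (1.37). These values had helped to choose the members, and nothing is read from the counts.

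As deposited, each of the 6 chains was nearer to WT in Dspp-/- than in Dspp+/-, but Myh1 was not with 3 other scalings (log2 ratios of 0.10 in Dspp+/- and 0.12 in Dspp-/- with median-ratio scaling), nor Myh8 with upper-quartile scaling (0.21 and -0.22) or when scaled to muscle genes (-0.20 and -0.37). Myh4 was 0.898 of its WT level (0.878 to 0.919), Myh2 1.05-fold (1.04 to 1.06) and Myh1 1.08-fold (1.07 to 1.09). Among the low chains, Myh8 was at 0.862 of WT (0.812 to 0.916), Myh3 at 0.711 (0.564 to 0.895) and Myh7 at 2.16-fold (1.32 to 3.64). None of the 5 compared chains was 2-fold higher or lower, where 4.05% of genes were higher and 1.37% lower. Both comparisons share the WT library. Set directly against Dspp+/-, the Dspp-/- library had 6.13-fold more Myh4 (5.87 to 6.39) and 0.509 of the Myh2, while Myh1 was at 0.972. In these 3 libraries the Dspp+/- values of Myh2 and Myh4 thus did not lie between those of WT and Dspp-/-. With 1 library per genotype, the part of genotype in this was not tested.

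**Figure D3:**
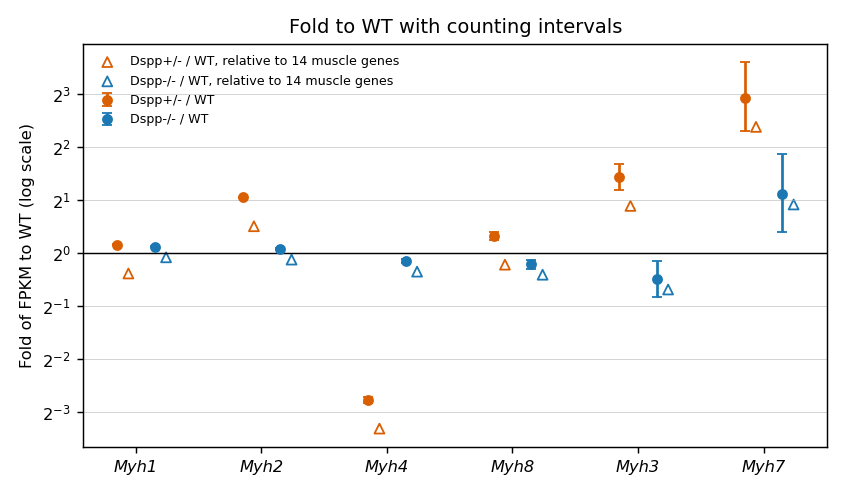
Fold of each heavy chain's FPKM against WT, on a log axis, for Dspp+/- and Dspp-/-. Circles are values as deposited, with bars for exact 95% counting intervals, and open triangles are values relative to 14 muscle genes. Myh4 in Dspp+/- lies 6.82-fold under WT, while in Dspp-/- Myh1, Myh2 and Myh4 lie at 1.08, 1.05 and 0.898 of WT.

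The sum of the 6 chains was 1147, 1488 and 1206 FPKM in WT, Dspp+/- and Dspp-/-, or 1.297-fold (1.288 to 1.305) and 1.05-fold (1.04 to 1.06) of WT. A set of 14 muscle genes used by all fibre types, among them Acta1, Mb and Ckm, summed to 10092, 14715 and 11579 FPKM. That was 1.46-fold and 1.15-fold of WT. Acta1 alone gave 5609, 8162 and 7150 FPKM of these sums, so values relative to the set rest mostly on that gene. Whether fibre types express these genes evenly was not tested. The heavy chains were 11.4% of that set in WT, 10.1% in Dspp+/- and 10.4% in Dspp-/-, so total heavy chain and the other muscle transcripts were higher together in Dspp+/-. Relative to those 14 genes, Myh4 was 9.95-fold lower in Dspp+/- than in WT, Myh2 1.42-fold higher, and Myh1 at 0.764 of WT. The direction for Myh1, Myh8 and the sum thus flipped with that scaling in Dspp+/-, and that of the other 4 chains did not. In Dspp-/- the same scaling put Myh4 at 0.783, Myh2 at 0.916 and Myh1 at 0.944 of WT, so the small differences of Myh1 and Myh2 flipped there.

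The other genes of fast fibres differed in direction among themselves. List medians and 2-fold counts are on the log2(FPKM + 1) scale. Of 14 fast-fibre genes, 13 averaged 1 FPKM or more, and in Dspp+/- 8 were higher and 5 lower than WT, with a median log2 ratio of 0.13 against 0.06 for all genes compared. Relative to the 14 muscle genes, 1 of the 13 was higher and 12 were lower. Tnnt3, the fast troponin T, was at 1450, 1950 and 1218 FPKM in WT, Dspp+/- and Dspp-/-, Atp2a1, the fast calcium pump, at 1146, 1767 and 1297, and Mylpf, the fast regulatory light chain, at 932, 1048 and 811. None of the 13 was 2-fold higher and 2 were 2-fold lower in Dspp+/-, and these are named after their values were seen. Actn3, the Z-disc actinin of the fastest fibres, was at 122, 31.0 and 89.5 FPKM, 3.93-fold lower than WT in Dspp+/- (3.74 to 4.13). Mybpc2, the fast myosin-binding protein C, was at 129, 56.8 and 95.04 FPKM. Pvalb, the calcium buffer abundant in IIb fibres and also chosen after its values were seen, was at 567, 294 and 453 FPKM. All 3 were low in Dspp+/- and intermediate in Dspp-/-. In Dspp-/- the fast list's median was -0.25, with 5 genes higher and 8 lower, or 2 and 11 relative to the muscle genes. Tnnc2, the fast troponin C, was at 0, 0.0529 and 0 FPKM in WT, Dspp+/- and Dspp-/-, on 0, 1 and 0 fragments. Why it was near 0 in all libraries, beside the abundant Tnnt3, was not tested.

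Of 11 slow-fibre genes, 9 averaged 1 FPKM or more, and as deposited all 9 were higher than WT in Dspp+/-, with a median of 0.74, while relative to the 14 muscle genes 6 were higher and 3 lower. In Dspp-/- 4 were higher and 5 lower, with a median of -0.05, or 2 and 7 relative to the muscle genes. Fhl1 was at 488, 878 and 777 FPKM in WT, Dspp+/- and Dspp-/-, Csrp3, the muscle LIM protein, at 53.7, 90.2 and 60.2, and Myoz2, a Z-disc protein, at 43.4, 64.3 and 44.1. Only Myl2, the slow regulatory light chain, was past 2-fold on the log2(FPKM + 1) scale, and it is named after its value was seen. It rested at 4.81, 17.7 and 4.01 FPKM, 3.68-fold higher than WT in Dspp+/- (3.14 to 4.33). As a plain ratio of FPKM, Casq2 was also past 2-fold in Dspp+/-, at 2.03-fold (1.85 to 2.24), and is named after its values were seen. The 14 genes of all fibre types were all higher in Dspp+/-, with a median of 0.60, and 1 of them, the mitochondrial creatine kinase Ckmt2, was past 2-fold (421, 853 and 584 FPKM, named after its values were seen). Mb, which encodes myoglobin, was at 1204, 1763 and 944 FPKM, and Ckm, the cytosolic creatine kinase, at 728, 972 and 796. In Dspp-/- 9 of the 14 were higher and 5 lower, with a median of 0.20.

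**Figure D4:**
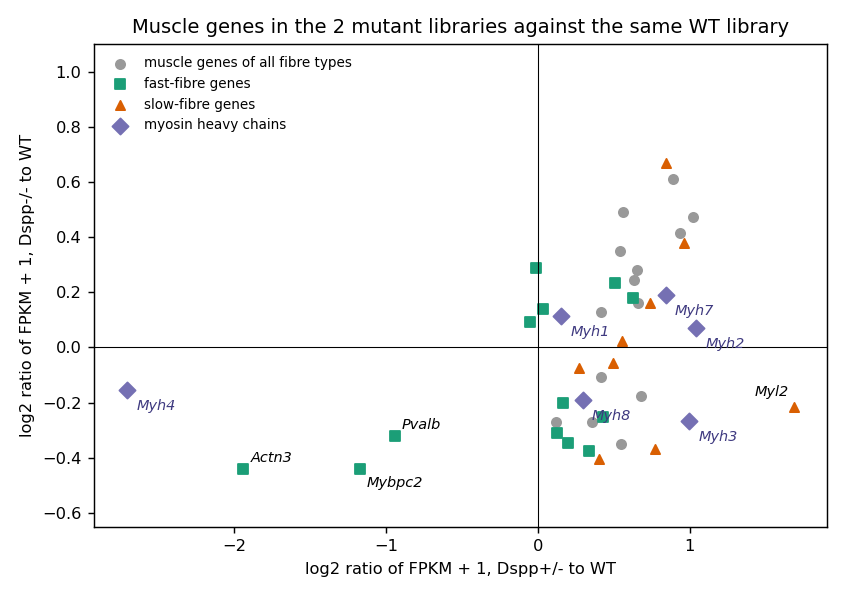
Log2(FPKM + 1) ratio to WT in Dspp+/- (horizontal axis) and in Dspp-/- (vertical axis), which share the WT library, with 1 point for each heavy chain and each gene of the fast-fibre, slow-fibre and all-fibre lists with a mean of 1 FPKM or more. Myh4 at -2.70 and Actn3, Mybpc2 and Pvalb lie to the left, and the list medians on the horizontal axis are 0.13, 0.74 and 0.60.

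A list of 6 light chains and 2 light chain kinases had 6 genes higher and 2 lower than WT in Dspp+/- as deposited, with medians of 0.15 in Dspp+/- and -0.17 in Dspp-/-. A list of 10 thick-filament proteins, their folding factors and sarcomeric ubiquitin ligases had 8 higher and 2 lower in Dspp+/-, with medians of 0.47 and 0.14. The list counts of this paragraph and the next were not scaled to the 14 muscle genes, whose sum was 1.46-fold of WT in Dspp+/-. The median of all genes compared was 0.06 in Dspp+/-. Myl1, a fast essential light chain, was at 537, 517 and 572 FPKM in WT, Dspp+/- and Dspp-/-, and Mylk2, the skeletal light chain kinase, at 86.3, 96.3 and 65.5. Trim54, a sarcomeric ubiquitin ligase, was at 48.3, 68.6 and 45.2 FPKM. Mybpc1, the slow myosin-binding protein C, was at 190, 322 and 261 FPKM, opposite in Dspp+/- to its fast relative Mybpc2. Of 13 regulators of fibre type, 11 were higher and 2 lower in Dspp+/-, with a median of 0.28. None was past 2-fold in either mutant on the log2(FPKM + 1) scale. As a plain ratio of FPKM, the low Ppargc1a was 2.19-fold higher in Dspp+/- than in WT (1.93 to 2.48). It was at 2.62, 5.74 and 4.75 FPKM and is named after its values were seen. Tbx15, a factor of fast glycolytic fibres, was at 53.0, 73.6 and 54.9 FPKM, Mef2c at 36.7, 42.5 and 43.0, and Vgll2, a cofactor linked to slow fibre genes, at 27.6, 48.8 and 37.0.

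Genes of young or repairing fibres were low or mixed in direction. Of 11 satellite cell and myoblast genes, 4 averaged 1 FPKM or more, with 2 higher and 2 lower in Dspp+/-. Myod1 was at 6.93, 8.69 and 6.76 FPKM and Cdh15, the muscle cadherin, at 12.7, 7.76 and 7.04. Myf6, which is also a factor of mature fibres, was at 19.2, 37.3 and 25.3 FPKM. Of the fetal list, 5 averaged 1 FPKM or more, Myh3 and Myh8 among them. Actc1, the cardiac and fetal actin, was at 10.9, 32.7 and 35.2 FPKM and was the gene of that list past 2-fold in both mutants. Myh3 did not share that pattern, since it was below WT in Dspp-/-. Ncam1, a cell adhesion molecule of young fibres and nerve, was at 10.3, 8.58 and 8.95 FPKM. Of 7 neuromuscular junction genes 5 were compared, with 4 higher and 1 lower in Dspp+/- and a median of 0.42. Lrp4, the agrin receptor, was at 23.9, 13.3 and 15.6 FPKM, Chrnb1, a subunit of the acetylcholine receptor, at 5.95, 8.33 and 6.59, and Dok7, an activator of MuSK, at 4.71, 5.43 and 3.42.

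The remaining sarcomeric heavy chains were near 0. Myh6, Myh7b, Myh13 and Myh15 summed to 0.119, 0.127 and 0.0955 FPKM in WT, Dspp+/- and Dspp-/-. The cardiac list of 8 genes does not hold Actc1. Of its genes 5 were in the deposited table, and 0 reached a mean of 1 FPKM. Pln had the highest mean of them, at 0.269, 0.814 and 0.928 FPKM in WT, Dspp+/- and Dspp-/-. Tnni3, the cardiac troponin I, differed from it in Dspp+/-, at 0.287, 0.103 and 0.305. The 4 non-sarcomeric chains Myh9, Myh10, Myh11 and Myh14 had medians of 0.29 in Dspp+/- and -0.01 in Dspp-/-. Myh9, the main chain of non-muscle cells, was at 31.1, 34.0 and 29.7 FPKM, and Myh11, the smooth muscle chain, was at 8.20, 10.4 and 9.62 FPKM, and the 5 smooth muscle genes compared had medians of 0.31 and 0.02. The 6 tendon genes had medians of -0.49 and -0.57.

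Between the chains on chromosome 11 lie antisense transcripts, which the counting could not separate from the chains if it ignored strand. 9430073C21Rik, on the minus strand next to Myh2, was at 7.93, 15.4 and 12.6 FPKM in WT, Dspp+/- and Dspp-/-, and overlapped 3.32% of the exon bases of Myh2. Myhas, between Myh1 and Myh4, was at 4.58, 5.35 and 6.21 FPKM and overlapped 8.11% of those of Myh1. Neither transcript was low in Dspp+/-, where Myh4 was. No other gene overlapped the exons of Myh4, Myh3 or Myh8, and 13.3% of those of Myh7 were overlapped on the other strand. Myh13, the last gene of the cluster, had 0, 0 and 1 fragments, and a count of 0 allows up to 0.0240 FPKM in WT and 0.0206 in Dspp+/-.

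The genes whose pair of log2 ratios to WT lay nearest to that of the summed heavy chains were Tmod1, Snx11, Psmd12, Rnf10 and S100a1. Their distances were 0.008 to 0.013 in log2 units over 3 libraries, and 2066 of 13021 genes lay within 0.25, so this likeness is not particular to them. Tmod1, which caps thin filaments, was at 12.8, 17.0 and 13.5 FPKM in WT, Dspp+/- and Dspp-/-, and S100a1, a calcium-binding protein of muscle, at 61.1, 79.0 and 64.0.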

How the data were processed

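Poly(A) RNA of mandibular condyles was sequenced in 3 libraries, 1 per genotype. The authors deposited 1 table of 26970 genes with 1 value per genotype. Its unit is not named and was read as FPKM, because the deposited values times merged exon length (GENCODE M21) and depth gave whole fragments. Within a tolerance of 0.05 this held for 98.9% of genes under 100 fragments in each library. The submitters' processing notes list FastQC 0.11.5, HISAT2 2.1.0, StringTie 1.3.3b and DESeq 1.28.0, with no role stated, and a human build, hg38. The annotation, the handling of multiply mapping reads and filters are not given in the sources used here. The labels mention triplicates, and the single value was taken as that of 1 pooled library. Dspp was not analysed here.

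Ratios are of log2(FPKM + 1), over genes with a mean of 1 FPKM or more. Depth was 20241572 to 23613620 fragments, so 1 fragment in a gene of 1 kb is worth 0.0423 to 0.0494 FPKM. Folds and shares carry exact 95% binomial intervals, and the fold of the sum a Poisson interval. With 1 library per genotype no test was made. The members and the 19 gene lists were chosen with earlier results of these data known. Named genes are the 6 members, the 3 of each muscle list with the highest mean, list genes past 2-fold in both mutants where a list had at most 3, and the 5 genes nearest to the summed chains, with exceptions stated. For the cartilage, bone, tendon, smooth muscle and cardiac lists the same rule held, but 1 gene at most is named. On the cardiac list Tnni3 is named as well. The rest are given as medians. Shared 100-base runs, coding identity (mafft 7.526) and promoter matches were computed from GENCODE and RefSeq sequence on GRCm38. Alternatives were the pseudocount, filter, fold, scaling, the members summed and the share's unit. Scaling the members and the fast-fibre and slow-fibre list counts to 14 muscle genes and the length of 1 transcript were added after the data were seen. Python 3.11.15, numpy 2.4.6, pandas 2.3.3 and scipy 1.17.1 were used. The fold computation and its interval were tested on simulated Poisson counts, which hold no PCR copies. The intervals of the shares and of the sum were not tested in this way.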

Additional observations from a re-analysis of the deposited data

How the results depend on the processing

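No paired analysis was possible because each genotype has 1 library, and for the same reason no library could be left out. The low Myh4 in Dspp+/- kept its direction under all alternatives, from -3.21 to -2.48 on the log2 scale, as did the high Myh2, from 0.50 to 1.07. Myh2 was under 2-fold with median-ratio scaling (0.99), upper-quartile scaling (0.96) and scaling to the muscle genes of all fibre types (0.50, added after the data were seen). Myh1 ranged from -0.39 to 0.18 and Myh8 from -0.20 to 0.32, and both were below WT with the muscle scaling alone. The cause of such changes was not tested. The log2 ratio of the summed chains in Dspp+/-, 0.37 as deposited, was 0.32 with median-ratio scaling, 0.40 without mitochondrial genes, 0.29 with upper-quartile scaling, -0.17 when scaled to muscle genes and 0.64 without Myh1. In Dspp-/- it was 0.07, and 0.15 without mitochondrial genes, 0.043 with upper-quartile scaling, -0.13 when scaled to muscle genes and 0.0098 without Myh1.

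Of the share values under alternatives, 35 moved past their counting intervals and 31 did not. Values follow in the order WT, Dspp+/- and Dspp-/-. As shares of fragments, Myh2 was 32.2%, 50.1% and 32.2%, Myh1 56.3%, 47.2% and 58.0%, and Myh4 9.85%, 1.09% and 8.41%. With the length of 1 transcript, added after the data were seen, Myh2 was 32.0%, 49.8% and 32.0%, Myh1 56.7%, 47.5% and 58.4%, and Myh4 9.78%, 1.08% and 8.35%. Among the 4 adult chains alone, Myh2 was 30.1%, 48.0% and 30.01% and Myh1 59.0%, 50.7% and 60.7%. Myh2 was therefore above Myh1 in Dspp+/- by fragments or transcript length and below it by FPKM.

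The genes past 2-fold were 636 higher and 373 lower for Dspp+/-, with 527 and 179 for Dspp-/-. In the same order, they were 971, 605, 836 and 363 with a pseudocount of 0.1, and 185, 156, 136 and 45 with one of 5. These counts are of 13026 genes, and 7133 genes had means of 5 FPKM or more. Among those 7133, 281 were higher and 272 lower in Dspp+/-, with 228 and 110 in Dspp-/-. A 1.5-fold threshold gave 1501, 1166, 1152 and 1070, and a 4-fold threshold 124, 24, 103 and 6. The slow-fibre median in Dspp+/-, 0.74, was 0.52 with a pseudocount of 5.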

Other observations

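Some genes not on any list had the pattern of Myh4, low in Dspp+/- and near WT in Dspp-/-, and they are named after their values were seen. Of the genes compared, 86 were at least 2-fold lower in Dspp+/- with a log2 ratio within 0.5 of WT in Dspp-/-, and Myh4 had the lowest Dspp+/- ratio of them. Dbp, a transcription factor whose transcript follows the circadian clock, came next, at 2.18 FPKM in Dspp+/-, against 19.6 in WT and 17.4 in Dspp-/-. It was the only one of 13021 genes within 0.25 log2 units of Myh4 over both ratios. Actn3 was the fourth of the 86. Among them were also the clock genes Nr1d1, at 52.6, 25.5 and 60.9 FPKM in WT, Dspp+/- and Dspp-/-, and Bhlhe41, at 7.73, 2.76 and 5.92. Clock genes were not looked at as a set here. The study's methods do not give the hour of collection, and its part in these values was not tested. The same 86 also held genes of bone and connective tissue, such as Postn at 431, 145 and 351 FPKM and Mmp13 at 649, 240 and 487.

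For Myh2, 37 genes lay within 0.25 log2 units. The nearest were Gm10282, at 9.10, 18.6 and 9.60 FPKM in WT, Dspp+/- and Dspp-/-, and Lrrc38, a potassium channel subunit, at 2.57, 6.10 and 2.96.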
